A study of Saccharomyces cerevisiae with 9 samples.

Results

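The genes described here encode tyrosine and type 2C phosphatases of budding yeast, several of which act on Hog1, the MAP kinase of the high-osmolarity glycerol (HOG) pathway, and an adaptor that serves one of them. They were chosen by standard name: the tyrosine phosphatases PTP1, PTP2 and PTP3, the type 2C phosphatases PTC1, PTC2, PTC3 and PTC4, and the adaptor NBP2. All 8 had a value on every array and were among the 5645 features, of 6868 deposited, that could be compared across the whole experiment. They lie on chromosomes II, IV, V and XV, and no RefSeq gene overlaps any of them.

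In budding yeast, rising osmolarity activates the kinase Pbs2, which phosphorylates Hog1 on a threonine and a tyrosine of its activation loop. Active Hog1 moves into the nucleus, drives the expression of glycerol-producing and other stress-defense genes, and is then returned to its resting state by phosphatases that remove either phosphate. Tyrosine phosphatases and type 2C phosphatases, which act on serine and threonine, share this task, and some of their genes are themselves known targets of the osmotic response.

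The strains differ in the C-terminal domain (CTD) of Rpb1, the large subunit of RNA polymerase II, which is built of short repeats that are phosphorylated on serines during transcription. All cells lacked the endogenous RPB1 gene and lived on a plasmid copy. In the S5A strain (labelled CTD5A) the plasmid carried repeats with serine 5 changed to alanine followed by wild-type repeats, in the S2A strain (CTD2A) repeats with serine 2 changed to alanine followed by wild-type repeats, and in the wild-type strain (CTD14) wild-type repeats throughout. Both mutants thus retained normal repeats, since cells do not survive on a domain that is mutant throughout. The domains also differ in their total number of repeats, and S5A carried fewer mutant repeats than S2A. A strain difference is thus not a contrast of the changed serine alone. The paper, without showing the data, saw no difference in the salt response between control plasmids with differing numbers of wild-type repeats. Both controls had more repeats in total than the S5A domain, so a domain of its length was not covered. Each strain was grown in YPD medium at 30 °C and profiled on 3 whole-genome tiled arrays, which set cDNA from cells exposed to 0.7 M NaCl for 30 min against cDNA from the unstressed culture of that strain.

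Each value is therefore a log2 ratio of salt-treated over unstressed cells. A value of 1 is a doubling of the transcript relative to the middle of the array, since the authors' normalization left every array with a median near 0 (-0.00135 to -0.00011). The salt-treated sample carried the same dye on all 9 arrays, so a dye effect drops out of strain differences but can remain within the response of a single strain. The arrays lacked a value for 156 to 1163 features. The 11 osmotic stress genes of the direction check that had complete values were all induced in every strain, led by the glycerol transporter gene STL1 at 7.26 ± 0.32 in S5A, 8.38 ± 0.82 in S2A and 8.47 ± 0.55 in wild-type (mean ± SD, n = 3 arrays each, as for all means given as ± below). RPO21, the gene that encodes Rpb1, had log2 ratios of -1.38 ± 0.16 in S5A, -0.95 ± 0.014 in S2A and -0.63 ± 0.20 in wild-type, and this ratio does not read the CTD sequence. Whether replicate arrays came from separate cultures is not in the labels, and the p-values then measure only the spread between these arrays.

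To ask how the phosphatase genes responded to salt, one mean per strain was fitted to every feature with limma, and a response was called at a Benjamini-Hochberg adjusted p below 0.05. In S5A, 3 of the 8 genes were induced and 1 was repressed, against 28.9% of all features induced and 34.2% repressed in that strain. S2A cells induced 5 and repressed 1 (all features: 31.6% and 37.1%). Wild-type cells induced 6 and repressed 1 (all features: 32.3% and 38.3%). The median log2 ratio of the 8 genes was 0.23 in S5A, 0.42 in S2A and 0.40 in wild-type, and that of all features was -0.07, -0.04 and -0.06. The 3 tyrosine phosphatase genes were induced in every strain and PTC2 was repressed in every strain, whereas the other type 2C genes and NBP2 had strain means between -0.17 and 0.46.

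**Figure D1:**
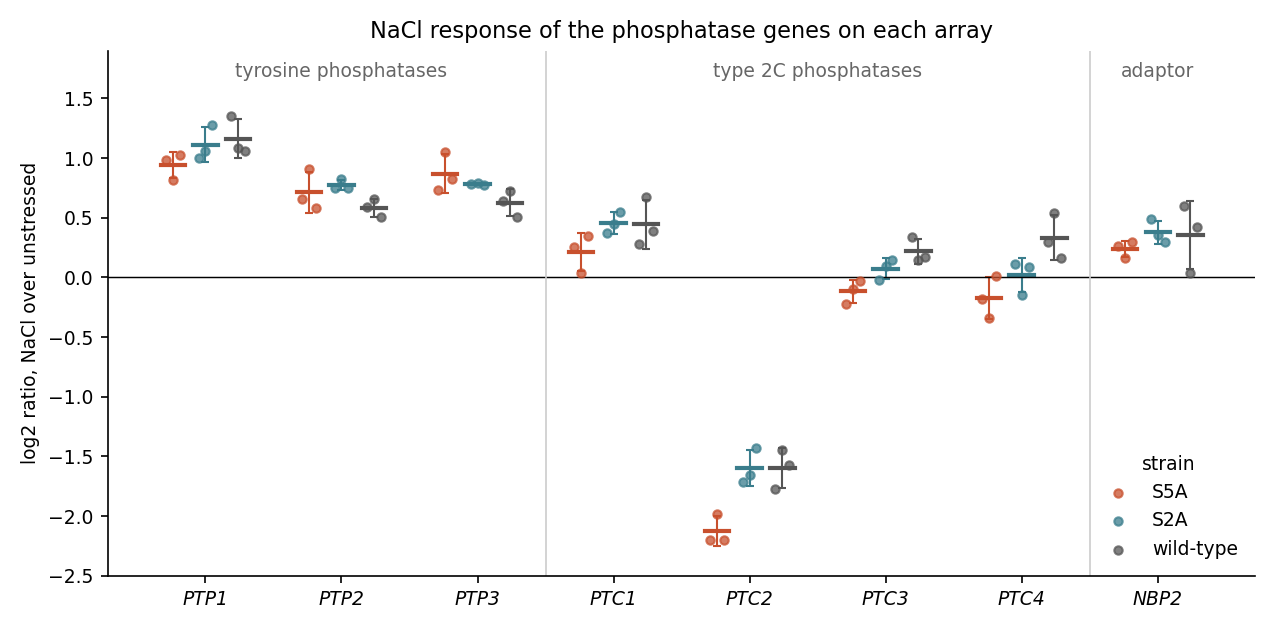
Log2 ratio of NaCl-treated over unstressed cells (y axis) for each of the 8 genes (x axis) on each array, one point per array, with S5A, S2A and wild-type from left to right. Thick bars are strain means and thin bars the SD of 3 arrays. PTP1, PTP2 and PTP3 lie above 0.5 on all 9 arrays, PTC2 lies below -1.4 on all 9, and the points of the remaining genes lie between -0.34 and 0.68.

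Among the tyrosine phosphatases, PTP2 and PTP3 encode the enzymes that dephosphorylate the Hog1 tyrosine, Ptp2 mainly in the nucleus and Ptp3 mainly in the cytoplasm. PTP2 (YOR208W) had log2 ratios of 0.65, 0.91 and 0.58 on the S5A arrays, 0.75, 0.82 and 0.75 on the S2A arrays, and 0.59, 0.66 and 0.51 on the wild-type arrays. All 9 values were positive, and the S2A values lay above every wild-type value whereas the S5A values overlapped those of both other strains. The means were 0.71 ± 0.17 in S5A (1.64-fold; adjusted p = 9.17e-05), 0.77 ± 0.043 in S2A (1.71-fold; 3.47e-05) and 0.58 ± 0.074 in wild-type (1.5-fold; 2.60e-04). The difference from wild-type was 0.13 in S5A (standard error 0.13, 95% interval -0.16 to 0.42, adjusted p = 0.540) and 0.19 in S2A (standard error 0.13, interval -0.11 to 0.48, adjusted p = 0.650). Neither difference was called.

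PTP3 (YER075C), whose product also acts on the mating kinase Fus3, had log2 ratios of 0.73, 1.05 and 0.83 on the S5A arrays, 0.78, 0.79 and 0.77 on the S2A arrays, and 0.64, 0.73 and 0.51 on the wild-type arrays. The lowest S5A value (0.729) was barely above the highest wild-type value (0.728), and the S2A values had the smallest spread among the 8 genes in any strain. PTP3 was induced by 0.87 ± 0.17 in S5A (1.83-fold; adjusted p = 2.66e-05), 0.78 ± 0.0079 in S2A (1.72-fold; 3.47e-05) and 0.63 ± 0.11 in wild-type (1.54-fold; 1.71e-04). Compared with wild-type, the S5A response differed by 0.24 (standard error 0.13, interval -0.05 to 0.54, adjusted p = 0.24). It was 0.43 (adjusted p = 0.0649) when the arrays were scaled to one spread and 0.37 (0.0261) with array weights. Both were short of the 0.025 required of a strain difference, the latter narrowly.

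PTP1 (YDL230W) encodes the third member of the class, a tyrosine phosphatase known for acting on the nucleolar protein Fpr3. It was the most strongly induced of the 8 genes by mean in every strain, with 0.98, 0.82 and 1.02 in S5A, 1.0, 1.06 and 1.28 in S2A, and 1.35, 1.08 and 1.06 in wild-type. All S5A values lay below all wild-type values, and the S2A values overlapped both. The means were 0.94 ± 0.11 in S5A (1.92-fold; adjusted p = 2.47e-05), 1.11 ± 0.15 in S2A (2.16-fold; 4.09e-06) and 1.16 ± 0.16 in wild-type (2.24-fold; 2.94e-06). S5A and wild-type differed by -0.22 (standard error 0.14, interval -0.54 to 0.09, adjusted p = 0.313), which was not called, and its sign turned, to 0.017, when the arrays were scaled to one spread.

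The type 2C phosphatases did not share a direction. PTC1 (YDL006W) encodes the enzyme that removes the threonine phosphate of Hog1. Its log2 ratios were 0.25, 0.034 and 0.35 in S5A, 0.37, 0.45 and 0.55 in S2A, and 0.28, 0.68 and 0.39 in wild-type. Every value was positive, the S5A values lay below all S2A values, and the S5A and wild-type values overlapped. The S5A mean of 0.21 ± 0.16 did not pass (adjusted p = 0.106), whereas PTC1 was induced in S2A (0.46 ± 0.089, 0.00305) and in wild-type (0.45 ± 0.21, 0.00341). In S5A it passed after median centring (0.0433) or quantile normalization (0.0499) of the arrays and with Storey's q-value (0.0217). Between S5A and wild-type the difference of -0.23 (standard error 0.15, interval -0.57 to 0.10, adjusted p = 0.313) was not called.

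PTC2 (YER089C), whose product acts on Hog1 and also on the cell cycle kinase Cdc28 and the checkpoint kinase Rad53, was the only strongly repressed gene of the 8. Its log2 ratios were -2.20, -1.98 and -2.20 on the S5A arrays, -1.71, -1.66 and -1.43 on the S2A arrays, and -1.77, -1.45 and -1.57 on the wild-type arrays. The S5A values lay below all others, and the S2A and wild-type values overlapped. Transcript fell 4.37-fold in S5A (-2.13 ± 0.13, adjusted p = 1.59e-07), 3.03-fold in S2A (-1.60 ± 0.15, 3.71e-07) and 3.03-fold in wild-type (-1.60 ± 0.16, 3.62e-07).

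The S5A minus wild-type difference of PTC2 was -0.53 (standard error 0.15, interval -0.85 to -0.21) with an adjusted p of 0.0376, which did not reach the 0.025 level. The S5A minus S2A difference was also -0.53 (standard error 0.15, interval -0.85 to -0.20, adjusted p = 0.0520). The side of the level depended on the processing. Against wild-type the difference passed after scaling the arrays to one spread (-1.0, adjusted p = 0.0132), after quantile normalization (-1.28, 0.00770), with array weights (-0.51, 0.00844) and with Storey's q-value (0.0193), and with replicate number as a block it gave 0.0250205, just above the level. With each array left out in turn its adjusted p lay between 0.0316 and 0.126. S2A and wild-type differed by -0.0013 (interval -0.33 to 0.32).

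Most features that salt repressed in wild-type had less negative ratios in S5A, and PTC2 had a more negative one. Of 2160 repressed features, 500 (23.1%) had a lower mean ratio in S5A than in wild-type, and 23 (1.06%) had a difference as low as that of PTC2 or lower. Choosing features by their wild-type values by itself favours less negative S5A ratios. Among all 5645 features, 9.80% had a lower S5A minus wild-type difference than PTC2, whose difference was not called. Ranked from the lowest mean log2 ratio among 5645 features, PTC2 stood at rank 26 in S5A, 299 in S2A and 316 in wild-type. On single arrays, 0.230%, 0.957% and 0.514% of features lay below PTC2 in S5A, 5.26%, 4.80% and 6.75% in S2A, and 4.0%, 7.92% and 6.5% in wild-type. The S5A and wild-type positions did not overlap, for which an exact two-sided permutation test gave p = 0.10, its lowest possible value with 3 arrays a side. The same exact permutation test gave p = 0.10 for PTC3 and PTC4, also placed lower on every S5A array, and for PTP2 and PTP3, placed higher. From 80.6% to 89.4% of features lay below PTP2 in S5A and 75.3% to 78.2% in wild-type. For PTP3 the positions were 83.0% to 91.5% in S5A and 75.2% to 79.9% in wild-type. Any 3 arrays against 3 that do not overlap give this p. The share of all features whose positions did not overlap was not computed. By log2 ratio, 37.7% of all features did not overlap between S5A and wild-type.

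**Figure D2:**
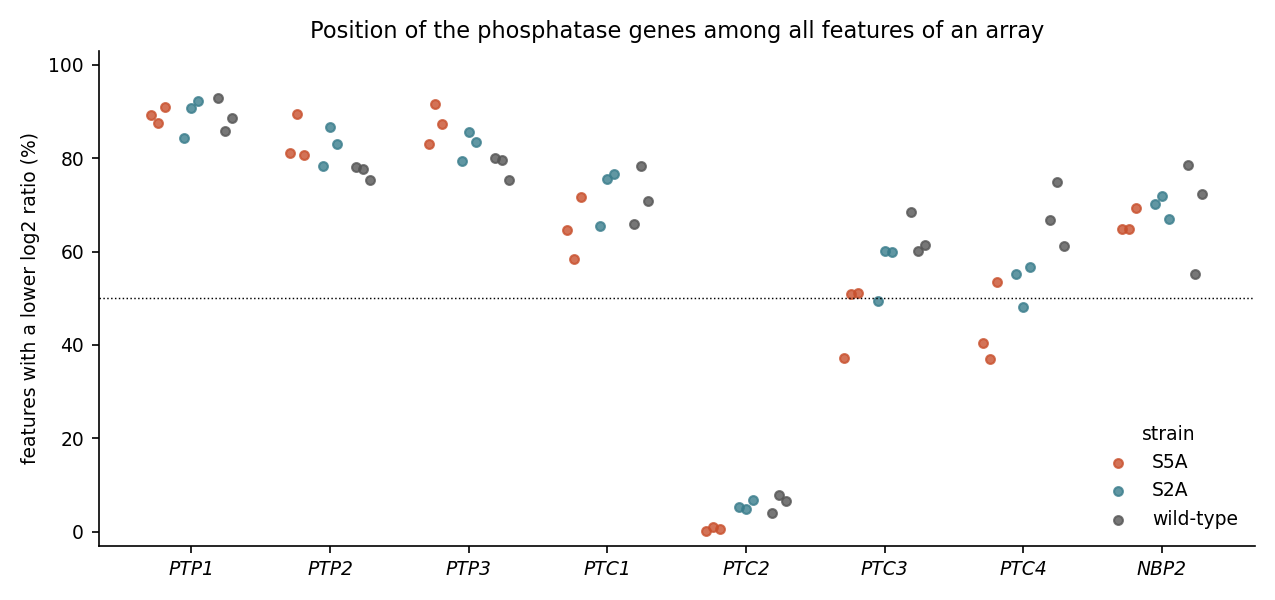
Share of the 5645 features with a lower log2 ratio (y axis, percent) for each of the 8 genes on each array, one point per array, with S5A, S2A and wild-type from left to right. The dotted line is the middle of the array. PTC2 lies below 1% on the S5A arrays and between 4% and 8% on the others, the S5A points of PTC3 and PTC4 lie below all their wild-type points, and those of PTP2 and PTP3 lie above all their wild-type points.

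PTC3 (YBL056W) is the paralog of PTC2 and encodes a closely related phosphatase, but it did not share the repression. Its log2 ratios were -0.22, -0.097 and -0.032 in S5A, -0.020, 0.094 and 0.15 in S2A, and 0.34, 0.15 and 0.17 in wild-type. The S5A arrays were all negative and below every S2A and wild-type array, and the wild-type arrays were all positive. The means were -0.12 ± 0.095 in S5A (adjusted p = 0.278), 0.07 ± 0.087 in S2A (0.481) and 0.22 ± 0.10 in wild-type (0.0501), none past the threshold. The wild-type value passed with the replicate block (0.0488), after median centring (0.0187), with array weights (0.0197) and with Storey's q-value (0.00905). S5A differed from wild-type by -0.33 (standard error 0.13, interval -0.62 to -0.05, adjusted p = 0.104).

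PTC4 (YBR125C), a type 2C phosphatase linked to Hog1 through overexpression experiments, had log2 ratios of -0.18, -0.34 and 0.0094 in S5A, 0.11, -0.14 and 0.089 in S2A, and 0.30, 0.54 and 0.16 in wild-type. The wild-type values lay above every value of the other strains, which overlapped each other. The means of -0.17 ± 0.18 in S5A (adjusted p = 0.195) and 0.02 ± 0.14 in S2A (0.887) did not pass, whereas PTC4 was induced in wild-type (0.33 ± 0.19, 0.0192). Wild-type PTC4 lost its call when replicate 1 (0.0506) or replicate 2 (0.122) of that strain was left out and in a fit of the wild-type arrays alone (0.0616), and the S5A mean passed as a decrease with Storey's q-value (0.0400). The difference from wild-type was -0.50 in S5A (standard error 0.16, interval -0.85 to -0.16, adjusted p = 0.0556) and -0.31 in S2A (standard error 0.16, interval -0.66 to 0.03, adjusted p = 0.569).

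NBP2 (YDR162C) encodes the adaptor that brings Ptc1 to Pbs2 and so to Hog1. Its log2 ratios were 0.26, 0.16 and 0.29 in S5A, 0.49, 0.35 and 0.30 in S2A, and 0.60, 0.038 and 0.43 in wild-type. All were positive, the S5A values lay just below the S2A values, and the wild-type values spread over the whole range of both mutants. The S5A mean of 0.24 ± 0.070 did not pass (adjusted p = 0.0859), whereas NBP2 was induced in S2A (0.38 ± 0.096, 0.0116) and wild-type (0.35 ± 0.29, 0.0159). The S2A call was lost without S2A replicate 1 (0.0664), and the wild-type call when replicate 1 (0.132) or replicate 3 (0.0816) of that strain was left out and with the wild-type arrays alone (0.0733). The S5A value passed without wild-type replicate 2 (0.0334), after median centring (0.0293), quantile normalization (0.0389) or scaling (0.0413), with array weights (0.0256) and with Storey's q-value (0.0176). S5A differed from wild-type by -0.12 (standard error 0.16, interval -0.47 to 0.24, adjusted p = 0.659).

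To ask whether the CTD substitutions altered these responses, the strain means were set against each other, with a difference called at an adjusted p of at most 0.025. None of the 8 genes was called between S5A and wild-type, where 7.95% of all features were (449 features, 233 higher and 216 lower in S5A; 72 higher and 110 lower after quantile normalization; 762 in all with the replicate block). None was called between S5A and S2A, where 3.31% of features were (187 features, 315 with the block), or between S2A and wild-type, where 0% were. At an unadjusted p under 0.05, 3 of the 8 genes differed between S5A and wild-type (1783 of all features), 0 between S2A and wild-type (479) and 1 between S5A and S2A (1543). The 3 genes were PTC2, PTC3 and PTC4, and PTC2 was the 1 gene between the mutants.

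The arrays of S5A and wild-type did not overlap for 5 genes (PTP1, PTP3, PTC2, PTC3 and PTC4), and this was so for 37.7% of all features. S2A and wild-type did not overlap for 3 genes (PTP2, PTP3 and PTC4; 12.5% of all features), and S5A and S2A for 4 genes (PTC1, PTC2, PTC3 and NBP2; 37% of all features). In the S5A minus wild-type difference the 4 type 2C genes lay between -0.53 and -0.23, and each kept its sign after scaling and quantile normalization. The 3 tyrosine phosphatase genes lay between -0.22 and 0.24, with PTP1 the gene whose sign turned under scaling. The median difference of the 8 genes was -0.23 between S5A and wild-type, 0.0044 between S2A and wild-type and -0.18 between S5A and S2A, beside 0.0094, 0.0069 and 0.0055 for all features. The median size of the difference, without its sign, was 0.24 for the 8 genes between S5A and wild-type and 0.28 for all features.

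**Figure D3:**
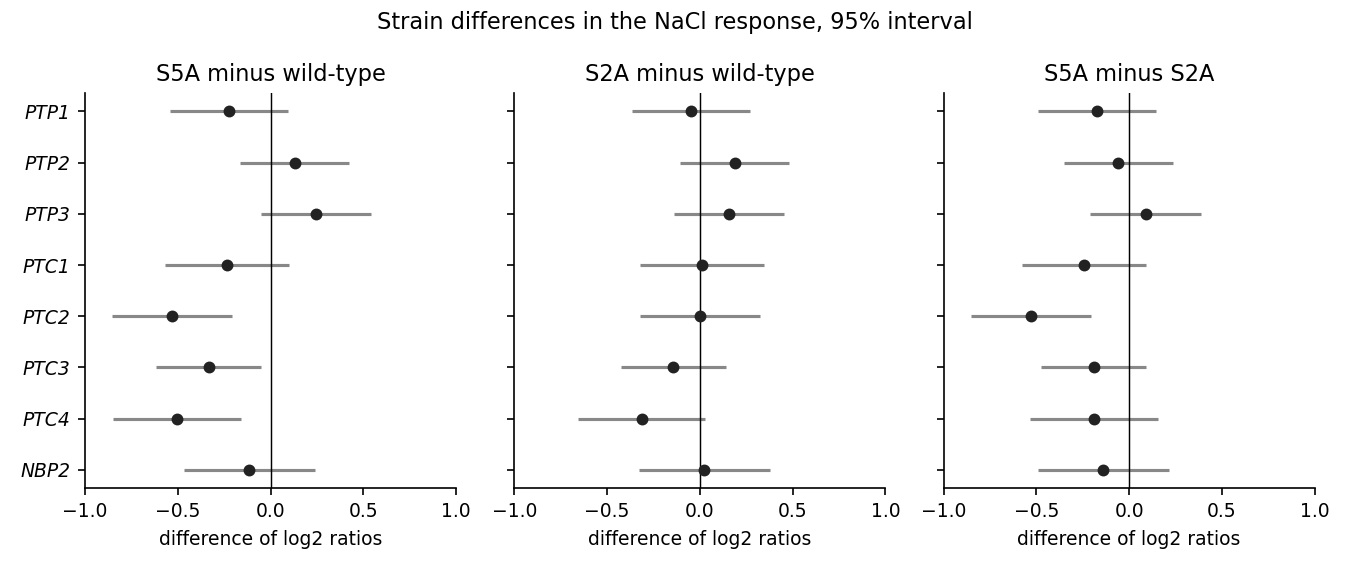
Difference between strains in log2 ratio (x axis) for each of the 8 genes (y axis), with S5A minus wild-type, S2A minus wild-type and S5A minus S2A from left to right. Points are limma estimates and bars their 95% intervals, unadjusted for the number of features. The intervals of PTC2, PTC3 and PTC4 lie below 0 for S5A minus wild-type and that of PTC2 for S5A minus S2A, and none of these passed the adjusted level.

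Responses on the S5A arrays were smaller over all features. The slope of an array on the mean wild-type response over all features was 0.725 ± 0.046 in S5A, 0.939 ± 0.065 in S2A and 0.963 ± 0.079 in wild-type, each wild-type array being set against the other wild-type arrays. The mean S5A response of a gene divided by its mean wild-type response was 0.808 for PTP1, 0.473 for PTC1 and 0.674 for NBP2, and 1.22 for PTP2, 1.39 for PTP3 and 1.33 for PTC2. With single S5A or wild-type arrays left out, the share ran from 0.466 to 1.03 for NBP2 and from 0.321 to 0.672 for PTC1. PTC3 and PTC4 had S5A and wild-type means of opposite sign. With the arrays scaled to one spread, which gives all arrays the same standard deviation, the S5A minus wild-type differences of PTC3 and PTC4 were -0.34 (adjusted p = 0.111) and -0.50 (adjusted p = 0.0646), close to the unscaled values.

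Within a strain, the order of the mean responses began with PTP1, PTP3 and PTP2 and ended with PTC2 in all 3 strains. PTP1 led PTP3 in S5A by 0.07 ± 0.27, less than the spread, and by 0.33 ± 0.15 in S2A and 0.54 ± 0.18 in wild-type, where it was higher on every array. PTP3 and PTP2 differed by 0.16 ± 0.087 in S5A, 0.0091 ± 0.037 in S2A and 0.04 ± 0.039 in wild-type. The next gap, from PTP2 down, exceeded its spread in S5A (0.47 ± 0.24) and S2A (0.32 ± 0.10) but not in wild-type (0.14 ± 0.17). Among PTC1, NBP2, PTC3 and PTC4, wild-type resolved no neighbours (gaps of 0.09 ± 0.49, 0.02 ± 0.45 and 0.11 ± 0.24). In S5A PTC1 stood above PTC3 by 0.33 ± 0.18 and in S2A NBP2 stood above PTC3 by 0.30 ± 0.18, while PTC1 and NBP2, and PTC3 and PTC4, were within their spread of each other in both mutants. The gap down to PTC2 exceeded its spread in each strain, at 1.96 ± 0.29 below PTC4 in S5A, 1.62 ± 0.18 below PTC4 in S2A and 1.82 ± 0.27 below PTC3 in wild-type.

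Genes with related roles were also compared within each array, where both share the labelling and the dye. PTC2 lay below its paralog PTC3 on 9 of 9 arrays, by -2.01 ± 0.15 in S5A, -1.67 ± 0.089 in S2A and -1.82 ± 0.27 in wild-type. PTP2 lay above PTC1, the tyrosine against the threonine phosphatase of Hog1, on 8 of 9 arrays, by 0.50 ± 0.33, 0.32 ± 0.10 and 0.14 ± 0.17 in the same order of strains. PTC1 minus its adaptor NBP2 averaged -0.028 ± 0.091 in S5A, 0.08 ± 0.18 in S2A and 0.09 ± 0.49 in wild-type. On single arrays it ran from -0.32 to 0.64. In an exact two-sided permutation test of the S5A against the wild-type arrays, p was 0.30 for PTC2 minus PTC3, 0.20 for PTP2 minus PTC1, 0.90 for PTC1 minus NBP2 and 0.10 for PTP2 minus PTP3 (0.40, 0.40, 0.90 and 0.40 after Benjamini-Hochberg adjustment over the 4 pairs), and 3 arrays against 3 cannot give a p below 0.10. The S5A minus wild-type difference of PTC2 minus PTC3 was -0.20, and -0.66 with the arrays scaled to one spread. Leaving out single arrays it ran from -0.34 to -0.086, that of PTP2 minus PTC1 from 0.18 to 0.50 and that of PTC1 minus NBP2 from -0.33 to 0.15.

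Other phosphatases were examined as a list of 12 type 2C, tyrosine and dual-specificity enzymes. S5A cells induced 4 and repressed 3 of them, S2A cells 5 and 4, and wild-type cells 3 and 5. Of all features, 28.9% were induced and 34.2% repressed in S5A, 31.6% and 37.1% in S2A, and 32.3% and 38.3% in wild-type. In this list 2 genes, SDP1 and PTC6, had a called difference between S5A and wild-type, as did 7.95% of all features. SDP1, the phosphatase of the cell wall integrity kinase Slt2, was induced by 1.15, 1.95 and 1.88 in S5A, 3.69, 2.97 and 3.49 in S2A, and 3.27, 3.37 and 3.09 in wild-type. Its S5A response was lower than that of wild-type by -1.59 (standard error 0.24, adjusted p = 0.00590) and than that of S2A by -1.73 (standard error 0.24, adjusted p = 0.0117). Against wild-type it lost its call after quantile normalization (-1.05, 0.0344) and without S5A replicate 1 (0.0278), and against S2A after quantile normalization (0.0350) and without S2A replicate 1 or 3 or S5A replicate 1 or 3 (0.0316 to 0.0460).

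PTC6, which encodes a mitochondrial type 2C phosphatase, was induced by 0.67 ± 0.099 in S5A, 1.30 ± 0.30 in S2A and 1.38 ± 0.16 in wild-type. The S5A minus wild-type difference of -0.71 (standard error 0.17, adjusted p = 0.0236) was close to the level and was lost in 11 of 20 alternatives, among them the replicate block (0.0271) and those that left out any one S5A or wild-type array (0.0301 to 0.0925) or S2A replicate 2 (0.0357). YVH1, a dual-specificity phosphatase gene linked to ribosome assembly, had the largest change over the 3 strains among the remaining list members, at -0.85 ± 0.18 in S5A, -1.53 ± 0.15 in S2A and -1.48 ± 0.24 in wild-type.

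The kinases that these phosphatases counteract, and the proteins that activate them, formed another list. Of 16 HOG sensors, adaptors and kinases, S5A cells induced 3 and repressed 9, S2A cells 4 and 8, and wild-type cells 4 and 8. The shares of all features were 28.9% and 34.2%, 31.6% and 37.1%, and 32.3% and 38.3% in the same order. Strain differences were called for 7.95% of all features between S5A and wild-type and 3.31% between S5A and S2A. SSK22, a kinase that activates Pbs2, was the 1 gene of the list with a called strain difference, at 0.17, -0.24 and -0.26 in S5A, -1.08, -0.91 and -1.57 in S2A, and -1.08, -1.33 and -1.45 in wild-type. It differed by 1.18 from wild-type (standard error 0.20, adjusted p = 0.00774) and by 1.08 from S2A (standard error 0.20, adjusted p = 0.0170). Leaving out wild-type replicate 3 (0.0326) or S5A replicate 1 (0.0360) ended the call against wild-type. The call against S2A ended in 9 of 20 alternatives, among them those without wild-type replicate 3, S2A replicate 1 or 3, or any one S5A array (0.0287 to 0.0748). The largest changes shared by all strains were those of the osmosensor genes SHO1 (-0.78 in S5A, -1.11 in S2A and -1.07 in wild-type) and MSB2 (-0.97, -1.11 and -0.96) and the kinase gene STE20 (-0.90, -1.03 and -1.05).

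HOG1 and PBS2, the substrate and its kinase, were added after their values were seen. HOG1 had log2 ratios of -0.44, -0.49 and -0.47 in S5A, 0.040, -0.14 and 0.038 in S2A, and -0.028, 0.36 and 0.0037 in wild-type, so every S5A array lay below every other array. The S5A minus wild-type difference of HOG1 was -0.58 (standard error 0.14, adjusted p = 0.0260) and missed the 0.025 level. It passed after median centring (0.0231), quantile normalization (0.0234) or scaling (0.0232), among protein-coding features (0.0220), with array weights (0.00575) and with Storey's q-value (0.0134). It stayed uncalled in 13 of 20 alternatives. Among those were the replicate block (0.0264), only the arrays compared (0.0472) and each array left out in turn (0.0273 to 0.0790). PBS2 averaged -0.39 ± 0.17 in S5A, -0.19 ± 0.16 in S2A and -0.12 ± 0.17 in wild-type, and its S5A minus wild-type difference of -0.27 (adjusted p = 0.257) was not called.

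Of 8 other MAP kinases and kinases upstream of them with complete values, S5A cells induced 3 and repressed 4, S2A cells 3 and 3, and wild-type cells 3 and 3. None had a called strain difference, beside 7.95% of all features for S5A minus wild-type, 0% for S2A minus wild-type and 3.31% for S5A minus S2A. Of all features, 28.9% were induced and 34.2% repressed in S5A, 31.6% and 37.1% in S2A, and 32.3% and 38.3% in wild-type. KDX1, a kinase related to Slt2, averaged 1.41 ± 0.18 in S5A, 0.83 ± 0.15 in S2A and 0.72 ± 0.33 in wild-type (S5A minus wild-type 0.69, adjusted p = 0.0350). SLT2, the kinase of the cell wall integrity pathway, averaged 0.94 in S5A, 0.95 in S2A and 0.83 in wild-type, and the mating kinase gene FUS3 -0.70, -0.53 and -0.63. The FUS3 call in S2A was lost without S2A replicate 2 (-0.31, adjusted p = 0.0770). Of 9 Hog1 substrates and transcription factors, S5A cells induced 4 and repressed 3, S2A cells 5 and 3, and wild-type cells 5 and 3. These counts stand beside the same shares of all features, and again no difference was called. The stress activator gene MSN2 averaged 1.42, 1.62 and 1.55 in the same order, and the corepressor genes TUP1 and CYC8 -1.32, -1.04 and -1.02, and -1.07, -0.98 and -1.26. The lists' median responses in S5A, S2A and wild-type were -0.10, 0.03 and -0.18 for the other phosphatases, -0.39, -0.36 and -0.33 for the HOG sensors and kinases, -0.31, -0.083 and 0.010 for the other MAP kinase modules, and -0.05, 0.41 and 0.29 for the Hog1 substrates and factors.

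**Figure D4:**
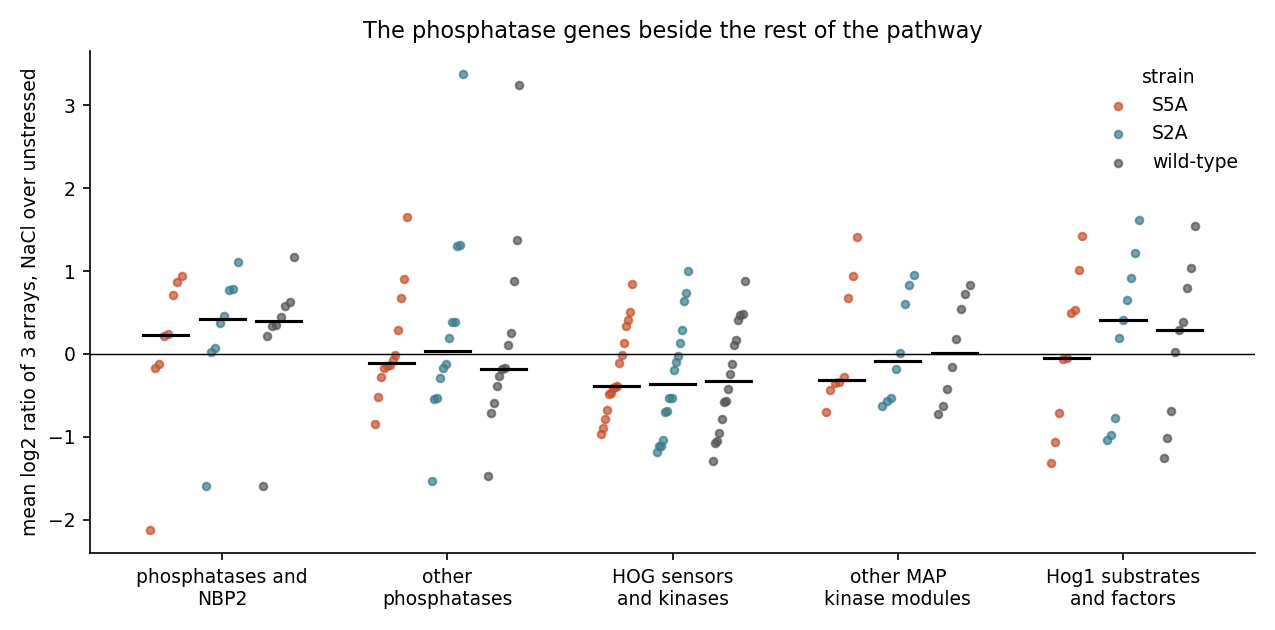
Mean log2 ratio over 3 arrays of NaCl-treated over unstressed cells (y axis) for each gene of 5 lists (x axis), one point per gene with complete values, with S5A, S2A and wild-type from left to right. Horizontal bars are list medians. The 8 genes of the first list have medians of 0.23, 0.42 and 0.40, and the highest points of the second list are SDP1.

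For each of the 8 genes, the feature with the most similar pattern was taken as the one with the smallest root mean square difference in log2 ratio over the 9 arrays, among 5637 features outside the 8. PTC2 was nearest to PAN1, a gene of the actin patch and endocytosis, at 0.137, and PAN1 averaged -2.16 in S5A, -1.62 in S2A and -1.58 in wild-type. PTC4 was nearest to the mitochondrial fission gene DNM1 (0.0999) and PTC3 to the transcription export gene HPR1 (0.0838). DNM1 and HPR1 averaged -0.10 and -0.08 in S5A and 0.24 and 0.15 in wild-type. Picking them for likeness by itself favours the same signs as PTC4 and PTC3. The nearest features were CVM1 for PTP1 (0.117), COG5 for PTP2 (0.0843), SOG2 for PTP3 (0.124), STB5 for PTC1 (0.0923) and NFI1 for NBP2 (0.0806). These distances are descriptions, and all features of an array share its labelling.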

How the data were processed

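Total RNA was converted to labelled cDNA and hybridized to 2-colour NimbleGen arrays. The authors deposited one normalized log2 ratio per feature and array, salt-treated over unstressed, with replicates not pooled; background correction, probe summarisation and genome build are not given in the sources used here. Precision is limited by the number of arrays. Single-channel intensities were not used here, so a strain difference cannot be placed in the salt-treated or the unstressed culture. The paper reported few expression differences between the strains before stress, which was not examined here for these genes.

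Features measured on every array (5645) entered a limma fit (limma 3.58.1 under R 4.3.3, lmFit with 1 mean per strain, contrasts and eBayes). A response was called at 0.05 and a strain difference at 0.025, on Benjamini-Hochberg adjusted p. The paper set these levels on Storey's q-values, which were only an alternative here. By that measure PTC2 passed for S5A minus wild-type (0.0193). Features were named through RefSeq locus tags, which matched 5984 of 6868 features. MLP1 in the list of MAP kinases is an older name of KDX1 (YKL161C), and that gene was used. From the lists outside the 8 genes, genes with a called strain difference were named, and otherwise up to 3 with the largest mean change among those called in all 3 strains. The genes and lists were chosen with earlier results of these data known. The fit was also run on simulated data with independent arrays and S5A shifts larger than any difference of the 8 genes as reported. That run does not test calls at smaller sizes, or with deviations shared by same-numbered arrays.

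Replicate numbers from the labels were checked as pairs by correlating the deviations of same-numbered arrays from their strain means. The correlations were 0.231, 0.177 and 0.166 between S5A and wild-type, 0.149, 0.388 and 0.292 between S2A and wild-type, and 0.129, 0.121 and 0.0616 between S5A and S2A. In all 9 pairs the correlation was higher than with the other numbers, so same-numbered arrays share part of their deviation. The fit as reported and the permutation tests left this pairing out, and only the replicate block took it into account. The fit was repeated with quantile normalization, with median centring, with arrays scaled to one spread, on features with at least 2 arrays per strain, on protein-coding features, with array weights, robust eBayes or a replicate block, on only the arrays compared, with Storey's q-value (lambda 0.5), at a difference level of 0.05 and without each array in turn.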

Additional observations from a re-analysis of the deposited data

Results flagged for a closer look

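PTC3 had log2 ratios of opposite sign in S5A and wild-type cells. All 3 S5A arrays were negative and all 3 wild-type arrays positive, with a difference of -0.33. On S5A replicates 2 and 3, 51.0% of features lay below PTC3, so its sign there depended on where 0 was set. The share of all features with such a split of signs was not computed. limma did not call the difference (adjusted p = 0.104), and neither strain's response passed in the fit as reported. The wild-type response passed with the replicate block (0.0488), median centring (0.0187), array weights (0.0197) and Storey's q-value (0.00905).

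SDP1 was picked out because its response differed between strains by the test of the difference itself, by -1.59 between S5A and wild-type and by -1.73 between S5A and S2A. SSK22 differed by 1.18 between S5A and wild-type and by 1.08 between S5A and S2A, and PTC6 by -0.71 between S5A and wild-type. These genes are not among the 8, none of which had a called strain difference. The search for single outlying arrays does not apply to groups of 3, so no array was examined in that way.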

How the results depend on the processing

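With 3 arrays per strain, no strain difference of the 8 genes passed in the fit as reported. PTC2 alone passed for S5A minus wild-type, giving 1 gene, under quantile normalization, scaling, array weights, Storey's q-value and a level of 0.05, and for S5A minus S2A, giving 1, under quantile normalization, scaling and array weights. In S5A, Storey's q-value called 7 of the 8 genes beside 4509 of 5645 features, and median centring and quantile normalization called 6 beside 3591 and 3953. In wild-type, median centring, the replicate block, array weights and Storey's q-value called all 8, beside 3986, 4146, 4487 and 4739 features. With each array left out in turn, 4 to 5 genes were called in S5A (all features 2881 to 3744), 5 to 6 in S2A (3471 to 4005) and 5 to 7 in wild-type (3498 to 4016), and 0 in every strain difference. The replicate block changed the call of PTC3 in wild-type and no other call of the 8 genes.

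Over all features, S5A minus wild-type gave 449 calls as reported, 182 with quantile normalization, 232 with scaling, 298 with only the arrays compared, 762 with the replicate block, 1284 with array weights, 789 with Storey's q-value and 798 at a level of 0.05. S5A minus S2A gave 187 as reported, and 70, 58, 61, 315, 423, 414 and 464 in the same order, with 88 for values on at least 2 arrays per strain. Leaving out arrays gave 17 to 460 calls for S5A minus wild-type (194 without wild-type replicate 2, 84 without wild-type 3, 17 without S5A 1, 195 without S5A 2 and 154 without S5A 3) and 0 to 275 for S5A minus S2A (61 without wild-type 3, 0 without S2A 1, 123 without S2A 2, 0 without S2A 3, 0 without S5A 1, 12 without S5A 2 and 6 without S5A 3). S2A minus wild-type gave 0 calls throughout.

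Some small values changed sign. Under scaling, S5A minus wild-type of PTP1 was 0.017, and S5A minus S2A was 0.035 for PTP1 and 0.094 for PTP2, which was 0.055 under quantile normalization. S2A minus wild-type of PTP1 was 0.0042 with quantile normalization, that of PTC1 -0.00071 with median centring, and with array weights those of PTP1, PTC2 and NBP2 were 0.043, 0.025 and -0.074 and the S2A response of PTC4 -0.0024. Leaving out arrays spanned -0.028 to 0.10 for the S2A response of PTC4 and -0.27 to 0.0066 for S5A minus wild-type of NBP2. For S2A minus wild-type it spanned -0.13 to 0.042 for PTP1, -0.075 to 0.12 for PTC1, -0.090 to 0.073 for PTC2 and -0.13 to 0.15 for NBP2, and for S5A minus S2A -0.16 to 0.0082 for PTP2 and -0.0029 to 0.16 for PTP3. Signal over background was not used here, and the causes of these changes were not tested.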
